A study of Mus musculus with 14 samples.

Results

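Krt1, Krt77, Krtdap, Dmkn, Dsg1a, Serpinb2 and Stfa3 are 7 genes of the suprabasal and cornified layers of the epidermis that were measured in sorted mouse mammary cells. They are 7 of the 6044 named genes in the value table, and each had 1 probe set there with a single gene symbol. Their profiles over these same arrays were known when they were chosen, so their values and differences are a description and were not tested. RNA of mammary populations from virgin female C57BL/6 mice aged 6 to 8 weeks had been hybridised to 14 Affymetrix Mouse Genome arrays, to ask how the sorted populations differ in gene expression. Of 3 basal populations with 3 arrays each, Thy-1+CD24medCD49fhigh cells bore the surface antigen Thy-1, Thy-1-CD24medCD49fhigh cells lacked it, and CD24medCD49fmed cells (CD24lowCD49fmed in the study's methods) were myoepithelial. The 2 luminal populations were CD24highCD49fmed cells with 3 arrays and CD24medCD49f-/low cells with 2 arrays. All glands were dissociated with collagenase and hyaluronidase, and the cells were stained also for CD45, CD31 and Ter119, markers of blood and vessel cells, and sorted in 2 rounds. The labels number the arrays of a population 1 to 3 and do not say whether they came from separate animals, so errors and p-values measure only the spread between these arrays. SEs of differences are from fits in limma. These draw each gene's variance towards a value common to all features, so an SE can be smaller than the gene's own spread implies.

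The epidermis is renewed from a basal layer of Krt5- and Krt14-positive keratinocytes. Cells that leave this layer switch to the keratins Krt1 and Krt10, strengthen their desmosomes, and end as flattened corneocytes with a cross-linked envelope. The mammary gland arises as an appendage of the same ectoderm, and its basal layer shares Krt5, Krt14 and Trp63 with the basal epidermis, whereas the cornified programme is known chiefly from skin, the nipple and other stratified epithelia.

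Several of these genes lie side by side in the RefSeq annotation of GRCm38.p6. Krt1 and Krt77 are direct neighbours on chromosome 15. Dmkn and Krtdap are direct neighbours on chromosome 7, and Sbsn, which encodes the secreted epidermal protein suprabasin and is also in the value table, is the next gene on the other side of Dmkn. The promoter windows of these 3 adjacent genes are shown with those of Serpinb2 and Krt77, which lie on other chromosomes, so that windows with and without a match can be compared. Each runs from 250 bases before to 50 bases after a RefSeq start site, 5′ to 3′ on the gene's own strand, with matches to the AP-1 motif TGANTCA in capitals.
Krtdap, chr7:30787655-30787954, plus strand: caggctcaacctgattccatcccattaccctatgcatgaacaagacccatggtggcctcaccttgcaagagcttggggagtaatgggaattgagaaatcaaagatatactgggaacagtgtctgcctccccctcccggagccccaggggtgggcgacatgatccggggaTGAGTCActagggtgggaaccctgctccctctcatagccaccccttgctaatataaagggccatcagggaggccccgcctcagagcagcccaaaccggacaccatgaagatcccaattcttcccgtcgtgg
Dmkn, chr7:30763506-30763805, plus strand: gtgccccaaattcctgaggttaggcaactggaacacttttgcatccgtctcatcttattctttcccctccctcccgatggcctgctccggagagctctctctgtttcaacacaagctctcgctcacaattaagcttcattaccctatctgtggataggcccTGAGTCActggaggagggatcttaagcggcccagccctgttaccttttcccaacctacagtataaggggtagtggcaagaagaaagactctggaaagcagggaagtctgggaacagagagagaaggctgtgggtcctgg
Sbsn, chr7:30751221-30751520, plus strand: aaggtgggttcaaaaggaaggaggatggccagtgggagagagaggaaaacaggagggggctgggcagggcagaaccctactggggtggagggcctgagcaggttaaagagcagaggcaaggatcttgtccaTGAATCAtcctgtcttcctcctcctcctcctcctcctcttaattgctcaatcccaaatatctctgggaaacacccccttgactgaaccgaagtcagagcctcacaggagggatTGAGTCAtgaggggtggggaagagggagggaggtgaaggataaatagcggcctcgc
Serpinb2, chr1:107511173-107511472, plus strand: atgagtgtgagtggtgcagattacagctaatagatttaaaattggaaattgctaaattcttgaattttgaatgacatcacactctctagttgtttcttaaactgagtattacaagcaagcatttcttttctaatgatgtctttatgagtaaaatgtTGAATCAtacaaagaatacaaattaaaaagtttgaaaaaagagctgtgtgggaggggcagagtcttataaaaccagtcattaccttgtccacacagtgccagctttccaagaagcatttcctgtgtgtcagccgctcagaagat
Krt77, chr15:101869656-101869955, minus strand: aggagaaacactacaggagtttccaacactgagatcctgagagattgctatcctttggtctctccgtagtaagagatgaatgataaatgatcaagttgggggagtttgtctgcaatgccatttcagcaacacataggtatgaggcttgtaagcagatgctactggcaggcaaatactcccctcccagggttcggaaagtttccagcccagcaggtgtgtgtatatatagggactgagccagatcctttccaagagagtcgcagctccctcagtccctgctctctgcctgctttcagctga
AP-1 factors of the Jun and Fos families act in keratinocyte differentiation. The motif TGANTCA, which reads the same on both strands, was in 7 of 8 RefSeq windows of these genes, belonging to 4 of the 5 genes with a window (Dmkn, Krtdap, Serpinb2 and Stfa3, not Krt77), and 7.81% of all 32851 windows of this length held it. Windows of 1 gene can overlap, and the 7 windows hold 5 distinct positions of the motif, 2 of them at Dmkn. Counted in bases from the start site of the window shown, it began at -81 in Krtdap, -89 in Dmkn and -94 in Serpinb2, and at -119 and -6 in Sbsn. From another RefSeq start of Serpinb2 the same site began at -181. In the window of Stfa3, which is not shown, the motif began at 29, after the start site. The grainyhead motif AACCNGTT (AACNGGTT on the other strand) was in none of the 8 windows and in 2.09% of all, the TATA motif, TATAAA or on the other strand TTTATA, in windows of Krtdap and Serpinb2 and in 13.6% of all, and the GATA motif, AGATAA or on the other strand TTATCT, in windows of Serpinb2 and Stfa3 and in 11.2% of all. A match describes letters only. No factor's binding was measured.

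The values are log2 signals that the authors centred on each probe set's mean over the 14 arrays, so 0 is that mean, a difference of 1 is 2-fold, and levels of different genes cannot be set against each other. Basal and luminal identity held in all arrays: the 16 measured genes of a mammary basal list had array medians of 0.80 to 2.15 in basal arrays and -2.86 to -2.59 in luminal arrays, and 16 measured luminal genes had -1.78 to -0.12 in basal and 1.43 to 2.10 in luminal arrays. The arrays differed in overall level, since the median over all features was -0.74 in Thy-1+CD24medCD49fhigh replicate 1 and -0.51 in Thy-1+CD24medCD49fhigh replicate 3, against -0.15 to 0.28 in the other 12. Defining markers of other cells were looked for too: 10 of 20 myeloid genes were measured (array medians of -0.43 to 0.14 in basal and -0.72 to 2.30 in luminal arrays), 1 of 8 Langerhans and antigen presenting cell genes (H2-Aa) and 2 of 9 melanocyte genes. H2-Aa was 0.20 to 2.61 in basal arrays numbered 1, -0.70 to 0.09 at number 2 and -0.65 to -0.04 at number 3. Its luminal arrays ran from -0.91 to 0.26, and it did not pass by number (limma F-test adjusted p = 0.571). Medians of the 2 melanocyte genes were -1.49 to 0.26, -0.28 to 0.41 and 0.13 to 0.85 at these numbers, against -0.65 to 0.18 in luminal arrays.

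In the basal arrays these genes varied widely, and most of them were low in all arrays of the same replicate number. Their SD over the 9 basal arrays was 1.49 (Stfa3) to 2.47 (Krt77), where the median SD of all features was 0.70. In the 5 luminal arrays it was 0.06 (Serpinb2) to 0.63 (Dmkn). Thy-1+CD24medCD49fhigh replicate 3 was the highest of the 14 arrays for 7 of 7 genes, as it was for 6.26% of all features, and the 3 basal arrays numbered 1 lay below the other 6 for 6 of 7 genes, as they did for 1.95% of all features. Within each of the 3 basal populations number 1 was the lowest array for the same 6 genes, as for 6.59% of all features. With each array centred on its median, or after quantile normalization, the number 1 arrays lay below the other 6 for 4 of 7 genes. Krt1, Serpinb2 and Stfa3 were then the exceptions, and the shares of all features were 2.8% and 2.43%. These shares describe the pattern for which the genes had been chosen and are no test of it.

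**Figure D1:**
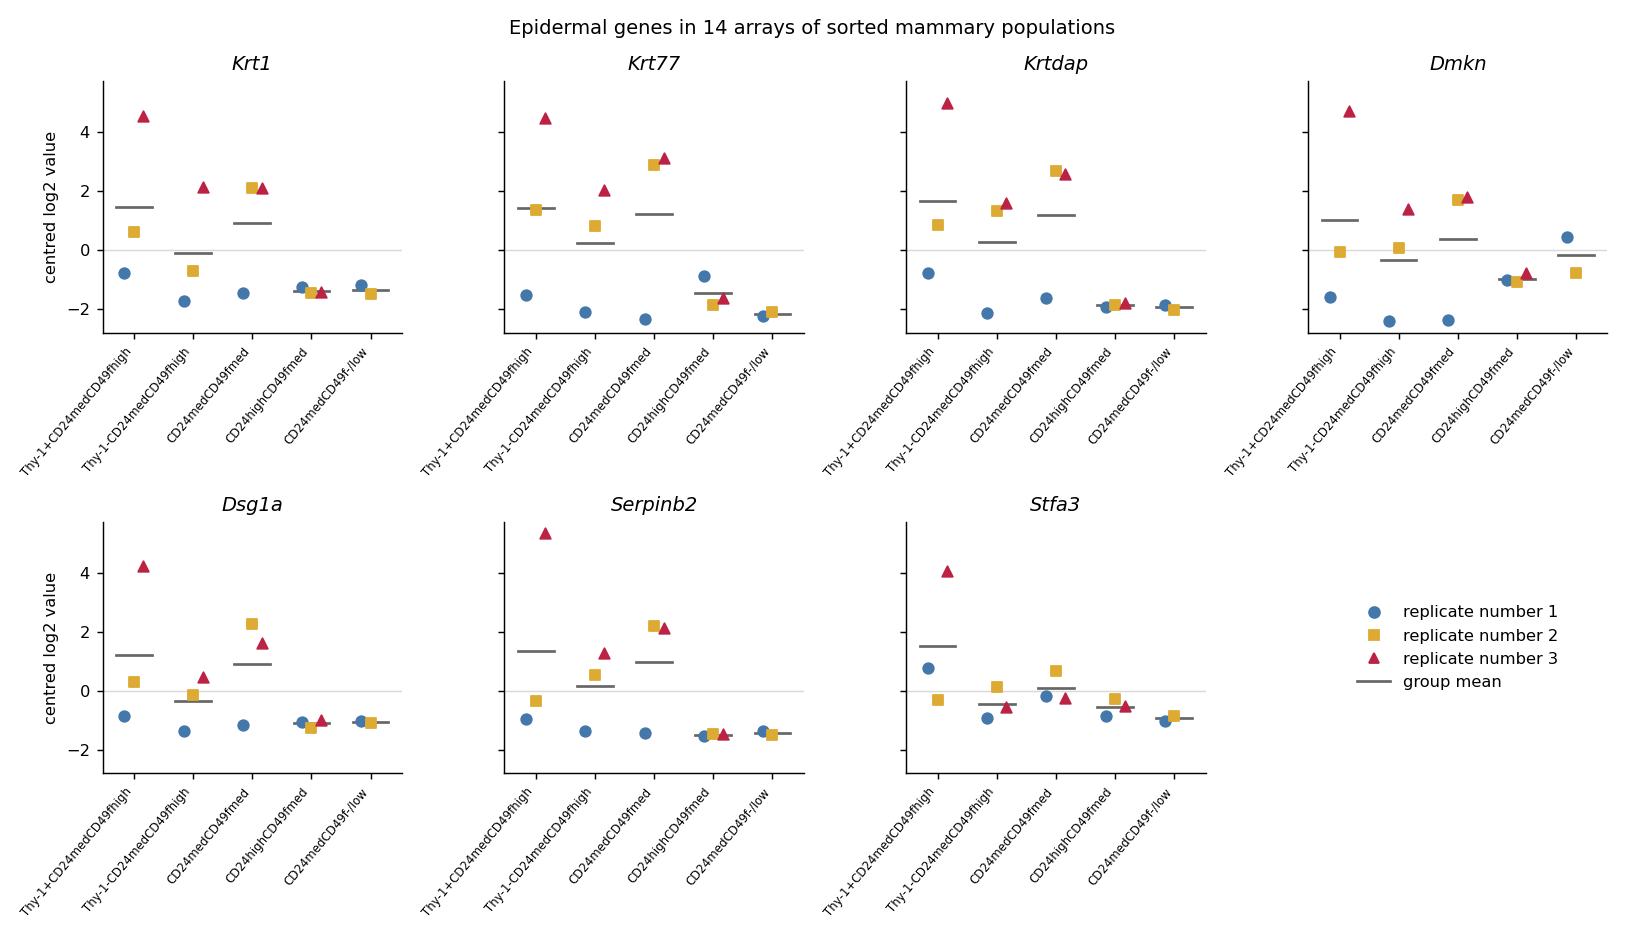
Centred log2 value (vertical axis, 0 is the mean of 14 arrays) of the 7 genes in each array, by sorted population, with colour and shape for the replicate number and a bar for the group mean. In basal populations the arrays numbered 1 lie lowest except for Stfa3, Thy-1+CD24medCD49fhigh replicate 3 lies highest (4.08 to 5.36), and the luminal arrays lie between -2.24 and 0.45.

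Krt1 encodes the type II keratin that pairs with Krt10 in suprabasal keratinocytes. It was -0.78, 0.60 and 4.57 in Thy-1+CD24medCD49fhigh replicates 1, 2 and 3, -1.74, -0.71 and 2.14 in Thy-1-CD24medCD49fhigh replicates, and -1.46, 2.10 and 2.10 in CD24medCD49fmed replicates, against -1.25, -1.46 and -1.44 in CD24highCD49fmed and -1.18 and -1.50 in CD24medCD49f-/low arrays. Only the highest number 1 array, Thy-1+CD24medCD49fhigh replicate 1, was above all luminal arrays, whereas all 6 arrays numbered 2 or 3 were. Krt77, its neighbour, encodes a type II keratin that was first named keratin 1b. It was -1.54, 1.38 and 4.50 in Thy-1+CD24medCD49fhigh, -2.11, 0.82 and 2.05 in Thy-1-CD24medCD49fhigh and -2.33, 2.88 and 3.12 in CD24medCD49fmed replicates 1, 2 and 3, against -0.87, -1.88 and -1.64 in CD24highCD49fmed and -2.24 and -2.12 in CD24medCD49f-/low arrays. No number 1 array exceeded the luminal range, and the gap between the highest number 1 array (-1.54) and the lowest other basal array (0.82) was the widest of the 7 genes. For Krt1 the same 2 values were -0.78 and -0.71, closer together than its luminal arrays, which spanned 0.32.

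Krtdap encodes a small secreted protein of differentiating keratinocytes. Its values were -0.79, 0.85 and 4.99 in Thy-1+CD24medCD49fhigh, -2.13, 1.34 and 1.61 in Thy-1-CD24medCD49fhigh and -1.64, 2.69 and 2.58 in CD24medCD49fmed replicates 1, 2 and 3, against -1.94, -1.88 and -1.80 in CD24highCD49fmed and -1.85 and -2.04 in CD24medCD49f-/low arrays. The basal arrays thus spanned 7.12, which is 139-fold, and the luminal arrays 0.24. Dmkn encodes dermokine, a secreted protein of the upper epidermal layers. It was -1.59, -0.05 and 4.72 in Thy-1+CD24medCD49fhigh, -2.42, 0.06 and 1.39 in Thy-1-CD24medCD49fhigh and -2.36, 1.69 and 1.79 in CD24medCD49fmed replicates, against -1.01, -1.10 and -0.79 in CD24highCD49fmed and 0.45 and -0.78 in CD24medCD49f-/low arrays. Dmkn was the 1 gene of the 7 whose number 1 basal arrays all lay below every luminal array, and CD24medCD49f-/low replicate 1 was above Thy-1+CD24medCD49fhigh and Thy-1-CD24medCD49fhigh replicates 2.

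Dsg1a encodes a desmoglein 1, a desmosomal cadherin of the upper epidermis that mice carry in several copies. It was -0.86, 0.31 and 4.24 in Thy-1+CD24medCD49fhigh, -1.35, -0.13 and 0.47 in Thy-1-CD24medCD49fhigh and -1.16, 2.28 and 1.62 in CD24medCD49fmed replicates 1, 2 and 3, against -1.06, -1.28 and -0.99 in CD24highCD49fmed and -1.01 and -1.08 in CD24medCD49f-/low arrays. The Thy-1+CD24medCD49fhigh arrays spanned 5.09 (34.1-fold) and the Thy-1-CD24medCD49fhigh arrays 1.82 (3.54-fold). The copies Dsg1b and Dsg1c flank it in the annotation, and whether the probe set separates the 3 transcripts is not known from the files.

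Serpinb2 encodes plasminogen activator inhibitor type 2, an intracellular and secreted serpin of keratinocytes and macrophages. It was -0.97, -0.36 and 5.36 in Thy-1+CD24medCD49fhigh, -1.36, 0.54 and 1.27 in Thy-1-CD24medCD49fhigh and -1.44, 2.21 and 2.12 in CD24medCD49fmed replicates 1, 2 and 3, against -1.53, -1.48 and -1.48 in CD24highCD49fmed and -1.37 and -1.50 in CD24medCD49f-/low arrays. The luminal arrays lay within 0.16 of each other. Thy-1+CD24medCD49fhigh replicate 3 was 80.1-fold above Thy-1+CD24medCD49fhigh replicate 1, the widest range of any of the 7 genes in that population. Of the myeloid list, which would hold macrophage genes, 10 of 20 were measured, and its array medians in basal arrays were -0.43 to 0.14. Its part in these values was not tested.

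Stfa3 encodes a stefin A, an inhibitor of cysteine proteases from a cluster of near-identical mouse genes that are expressed in epidermis and in bone marrow cells, so its probe set may read several of them. It was 0.77, -0.30 and 4.08 in Thy-1+CD24medCD49fhigh, -0.91, 0.14 and -0.55 in Thy-1-CD24medCD49fhigh and -0.17, 0.69 and -0.24 in CD24medCD49fmed replicates 1, 2 and 3, against -0.86, -0.29 and -0.50 in CD24highCD49fmed and -1.01 and -0.84 in CD24medCD49f-/low arrays. Apart from the single value of 4.08, the 8 other basal arrays ran from -0.91 to 0.77 with no order by number, and they overlapped the luminal range. Without that value all its arrays lay between -1.01 and 0.77, so Stfa3 met the authors' 4-fold filter only through Thy-1+CD24medCD49fhigh replicate 3. That it was highest in the same array as the other 6 genes was thus fixed by the filter. Unlike those 6 genes, it did not have its lowest basal arrays at number 1.

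Averaged over the 3 basal populations, the numbers 1, 2 and 3 differed for the keratins, the secreted proteins and the desmosomal and protease inhibitor genes alike, and again least for Stfa3. Krt77 averaged -2.0 ± 0.41, 1.69 ± 1.06 and 3.22 ± 1.23 at numbers 1, 2 and 3, Krtdap -1.52 ± 0.68, 1.63 ± 0.96 and 3.06 ± 1.74, and Dmkn -2.12 ± 0.46, 0.57 ± 0.97 and 2.63 ± 1.82 (SD, n = 3 populations at each number). Number 3 minus number 1 was 5.22 ± 0.58 for Krt77 (37.2-fold), 4.76 ± 0.68 for Dmkn, 4.58 ± 0.66 for Krtdap, 4.26 ± 0.63 for Krt1, 4.17 ± 0.80 for Serpinb2, 3.23 ± 0.70 for Dsg1a and 1.2 ± 0.76 for Stfa3 (log2 difference ± SE, fit with population as a term). Number 2 minus number 1 was smaller for every gene, from 3.69 ± 0.58 for Krt77 to 0.28 ± 0.76 for Stfa3. The median range of the 3 number means was 4.26 for these genes and 0.75 for all features. Across all features, 33 of 7190 (0.459%) passed the moderated F-test of limma for a difference between numbers at an adjusted p under 0.05. These include 4 of the 7 genes, for which this is no test. That count was 0 without Thy-1+CD24medCD49fhigh replicate 1, 0 without Thy-1+CD24medCD49fhigh replicate 3 and 0 after each array was centred on its median (585 features had an unadjusted p under 0.05 in the deposited scaling).

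Numbers 2 and 3 overlapped, as for Krt77 (2.88 in CD24medCD49fmed replicate 2, 2.05 in Thy-1-CD24medCD49fhigh replicate 3). Only number 1 lay below the others, for 6 of 7 genes in the deposited scaling. The arrays of the 3 basal populations overlapped for each of the 7 genes. The share of all features with such an overlap was not counted. From the highest, the order was Thy-1+CD24medCD49fhigh, CD24medCD49fmed and Thy-1-CD24medCD49fhigh cells for each of the 7 genes, followed by the luminal populations, except that Dmkn averaged -0.32 in Thy-1-CD24medCD49fhigh arrays and -0.16 in CD24medCD49f-/low arrays. Krtdap averaged 1.68 ± 2.98 in Thy-1+CD24medCD49fhigh, 0.28 ± 2.09 in Thy-1-CD24medCD49fhigh and 1.21 ± 2.47 in CD24medCD49fmed cells (SD, n = 3 each). Thy-1+CD24medCD49fhigh minus Thy-1-CD24medCD49fhigh was 1.19 (Serpinb2) to 1.96 (Stfa3), with SEs of 0.74 to 0.82, and the median of 1.41 stood beside -0.42 for all features. These SEs understate the genes' own spread. Serpinb2 had an SE of 0.81, though its SDs in the 2 populations were 3.49 and 1.36 (n = 3 each). Thy-1+CD24medCD49fhigh minus CD24medCD49fmed was 0.23 (Krt77) to 1.43 (Stfa3), with SEs of 0.89 to 1.44 and a median of 0.47 beside -0.51 for all features. Thy-1-CD24medCD49fhigh minus CD24medCD49fmed was -1.25 (Dsg1a) to -0.53 (Stfa3), with SEs of 0.39 to 1.42 and a median of -0.94 beside -0.07 for all features. With the number as a block, which treats arrays with equal numbers as pairs, the SEs of that difference were 0.31 to 0.48 (Krtdap -0.94 ± 0.32, Dsg1a -1.25 ± 0.40). The labels do not state such pairs. These 3 comparisons share arrays in pairs.

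The position of Thy-1+CD24medCD49fhigh cells rested on single arrays. Without Thy-1+CD24medCD49fhigh replicate 3 the median of Thy-1+CD24medCD49fhigh minus Thy-1-CD24medCD49fhigh over the 7 genes was -0.24, and 4 of the 7 differences changed sign (Krt77 -0.33, Krtdap -0.24, Dmkn -0.50 and Serpinb2 -0.81). Without it the median of Thy-1+CD24medCD49fhigh minus CD24medCD49fmed was -1.19, and 6 of 7 differences were below 0, from -1.62 for Serpinb2 to -1.0 for Krt1, with Stfa3 at 0.14. Stfa3 kept its sign in both comparisons (0.67 against Thy-1-CD24medCD49fhigh). Leaving out CD24medCD49fmed replicate 1 instead also put Thy-1+CD24medCD49fhigh minus CD24medCD49fmed below 0 for the same 6 genes.

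Within 1 number the position of Thy-1+CD24medCD49fhigh cells depended on the number, whereas the median of Thy-1-CD24medCD49fhigh minus CD24medCD49fmed was below 0 at each. Thy-1+CD24medCD49fhigh lay above CD24medCD49fmed for 7 of 7 genes at number 1 (median 0.77), for 0 of 7 at number 2 (median -1.74) and for 7 of 7 at number 3 (median 2.62), where the medians of all features were -0.71, -0.10 and -0.60. Thy-1+CD24medCD49fhigh lay above Thy-1-CD24medCD49fhigh for 7, 3 and 7 of the 7 genes, with medians of 0.83, -0.11 and 3.38. Thy-1-CD24medCD49fhigh lay above CD24medCD49fmed for 2, 0 and 1 of the 7, with medians of -0.19, -1.67 and -0.85. Serpinb2 spans this range: it was 0.47, -2.57 and 3.24 in Thy-1+CD24medCD49fhigh relative to CD24medCD49fmed cells at numbers 1, 2 and 3.

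**Figure D2:**
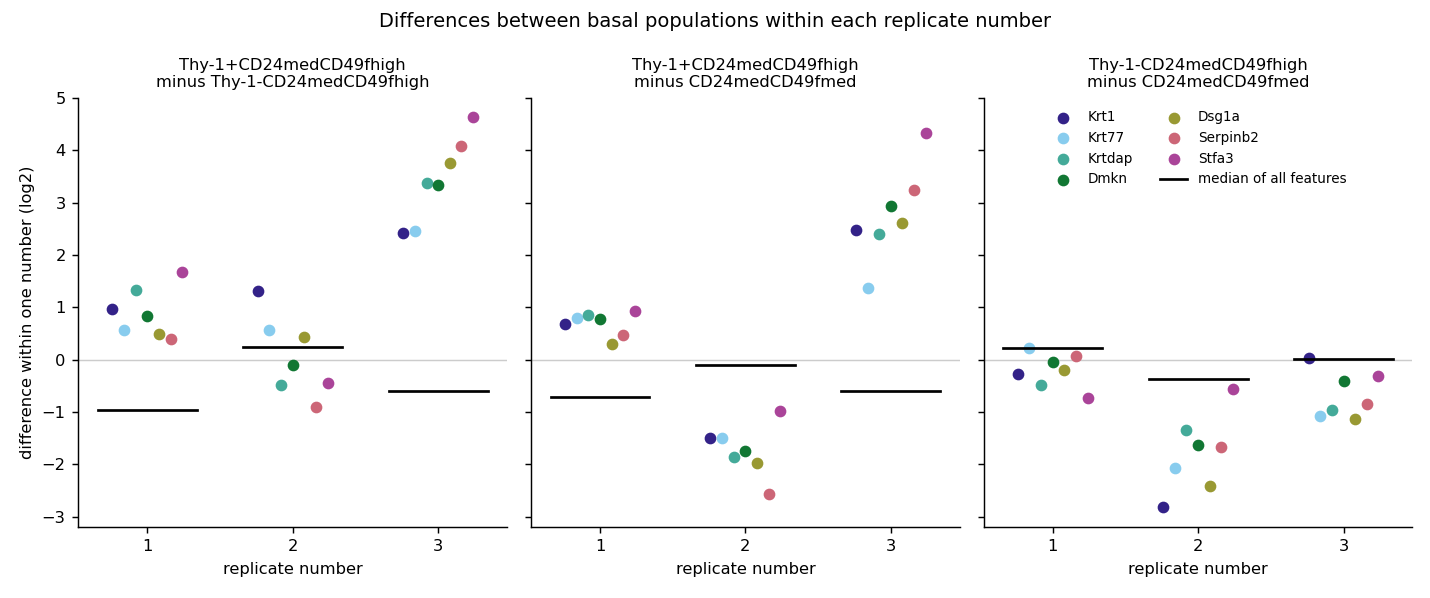
Log2 difference between 2 basal populations at the same replicate number (horizontal axis) for the 7 genes (points) and the median of all features (black bars). Thy-1+CD24medCD49fhigh minus CD24medCD49fmed is above 0 for 7 genes at numbers 1 and 3 and below 0 for 7 genes at number 2 (medians 0.77, 2.62 and -1.74).

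Against the luminal populations all 7 genes had higher basal means, though with wide errors. The difference of the mean of 3 basal and the mean of 2 luminal populations was 2.97 ± 0.82 for Krtdap (7.82-fold), 2.80 ± 0.90 for Krt77, 2.28 ± 0.80 for Serpinb2, 2.12 ± 0.75 for Krt1, 1.68 ± 0.65 for Dsg1a, 1.13 ± 0.49 for Stfa3 and 0.93 ± 0.84 for Dmkn (log2 ± SE, 9 and 5 arrays). The median was 2.12, beside -0.33 for all features. Of the 9 basal arrays, 8 lay above all 5 luminal arrays for Krtdap and Serpinb2, 7 for Krt1 and Dsg1a, 6 for Krt77 and Stfa3 and 4 for Dmkn. The sign held without each array in turn and under each other scaling, and without Thy-1+CD24medCD49fhigh replicate 3 the differences were 0.31 (Dmkn) to 2.42 (Krtdap).

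The other cornified and suprabasal genes were measured in part: 30 of a list of 99 were in the table, which the authors had filtered on signal and on a 4-fold difference, and the 30 included no filaggrin, loricrin or late cornified envelope gene. This list and the others below were drawn up with results of these arrays known. In basal relative to luminal cells 9 of the 30 rose and 4 fell in limma, where 17.4% of all features rose and 27.7% fell, and the list's median was 0.51 beside -0.33. The lipid enzyme genes Elovl4 (3.02 ± 0.44, adjusted p = 1.92e-05), which elongates very long fatty acids, and Acer1 (1.68 ± 0.51, adjusted p = 0.0121), a ceramidase gene of epidermis, rose, as did Them5 (2.49 ± 0.43, adjusted p = 0.000119). Krt10, the partner of Krt1, rose by 2.45 ± 0.82 (adjusted p = 0.0209) and Krt16, a keratin of stressed epidermis, by 1.45 ± 0.38 (adjusted p = 0.00433). Lgals7, Capns2, Dapl1 and Gjb5 rose by 2.12, 1.49, 1.14 and 0.98 (limma adjusted p = 0.000337, 0.0234, 0.0184 and 0.0406). The transglutaminase gene Tgm1, whose enzyme cross-links the cornified envelope, fell by 1.14 ± 0.29 (adjusted p = 0.00353), and Grhl1, a grainyhead transcription factor gene, fell by 1.85 ± 0.41 (adjusted p = 0.0011). Dkkl1 and Fam25c fell by 1.82 and 1.69 (limma adjusted p = 0.000159 and 0.0175). The envelope genes Ivl (0.65), Sprr1a (-0.48), Sprr1b (0.44) and Ppl (-0.67) did not pass the threshold, and nor did Sbsn (-0.14 ± 0.56, adjusted p = 0.851).

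By replicate number 2 of the 30 passed, where 0.459% of all features did, and their number means ran the same way as those of the 7 genes. The list was drawn up with results of these arrays known. Some of its genes met the authors' 4-fold filter only through Thy-1+CD24medCD49fhigh replicate 3. The count is thus no independent support for the pattern of the 7 genes. Krt10 was -3.33, 1.5 and 3.40 in Thy-1+CD24medCD49fhigh, -0.74, 1.94 and 1.78 in Thy-1-CD24medCD49fhigh and -1.56, 2.39 and 2.41 in CD24medCD49fmed replicates 1, 2 and 3, against -1.79 to -1.34 in luminal arrays (limma F-test adjusted p = 0.00439). Its 3 number 1 arrays lay below the other 6, as those of Krt1 did. Calm4, which encodes a calmodulin-like protein of the skin, was -0.80, -0.13 and 3.27 in Thy-1+CD24medCD49fhigh, -0.99, -0.80 and 2.03 in Thy-1-CD24medCD49fhigh and -0.94, 0.29 and 2.75 in CD24medCD49fmed replicates, against -1.21 to -0.82 in luminal arrays (adjusted p = 0.00439). For Calm4 the 3 number 3 arrays lay above all others. Its lowest number 2 array (-0.80) was barely above the highest luminal array (-0.82) and level with Thy-1+CD24medCD49fhigh replicate 1 (-0.80). Both calls were lost without single arrays or after scaling: without Thy-1+CD24medCD49fhigh replicate 1 the adjusted p was 0.246 for Krt10 and 0.162 for Calm4, without Thy-1+CD24medCD49fhigh replicate 3 it was 0.122 and 0.189, and after median centring 0.0711 and 0.0537 (range over 13 alternatives 4.11e-09 to 0.246 and 0.000392 to 0.189, with 9 of 13 past the threshold for each gene).
Sbsn, the neighbour of Dmkn, was -2.28, -0.45 and 2.60 in Thy-1+CD24medCD49fhigh, -0.93, -0.72 and 0.75 in Thy-1-CD24medCD49fhigh and -0.91, 0.54 and 1.18 in CD24medCD49fmed replicates 1, 2 and 3, against -0.33 to 0.75 in luminal arrays. Its number 1 arrays also lay below the other 6, yet it did not pass the F-test (adjusted p = 0.0893).

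Among the 3 basal populations themselves none of the 30 passed the threshold of limma in any comparison. In Thy-1+CD24medCD49fhigh relative to Thy-1-CD24medCD49fhigh cells 3 of the 30 had an unadjusted p under 0.05, in Thy-1+CD24medCD49fhigh relative to CD24medCD49fmed cells 2, and in Thy-1-CD24medCD49fhigh relative to CD24medCD49fmed cells 0. Over all features 0.0278% rose and 0.0139% fell in the first of these comparisons and 0.0% passed in the others, with 380, 383 and 84 features at an unadjusted p under 0.05. The largest list differences of Thy-1+CD24medCD49fhigh cells were those of Gdpd3 (1.94), Gjb5 (1.80), a connexin gene, and Dapl1 (1.51) relative to Thy-1-CD24medCD49fhigh cells and of Gjb5 (1.70) and Dapl1 (1.45) relative to CD24medCD49fmed cells. The labels do not say whether arrays with equal numbers belong together. With the number as a block, which treats them as if they did, 55 features (15 higher, 40 lower) passed between Thy-1+CD24medCD49fhigh and CD24medCD49fmed cells, none of them on this list. Without Thy-1+CD24medCD49fhigh replicate 2 that comparison called 856 features, 3 of them on the list. Thy-1+CD24medCD49fhigh replicate 3 was the highest of 14 arrays for 23 of the 30 genes, as for 6.26% of all features, and the envelope genes Ivl, Sprr1b and Sprr2d were among the 23. The number 1 basal arrays lay below the other 6 for 4 of the 30 (Krt10, Sbsn, Psapl1 and Grhl1), as for 1.95% of all features. The authors' filter kept only probe sets with a 4-fold difference between arrays. Without Thy-1+CD24medCD49fhigh replicate 3, Ivl ran from -0.55 to 0.66 and Klk5 from -0.77 to 0.39. Such genes had a 4-fold range only through that array, so the count of 23 follows in part from the filter. It is no test of a high array shared by the list.

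**Figure D3:**
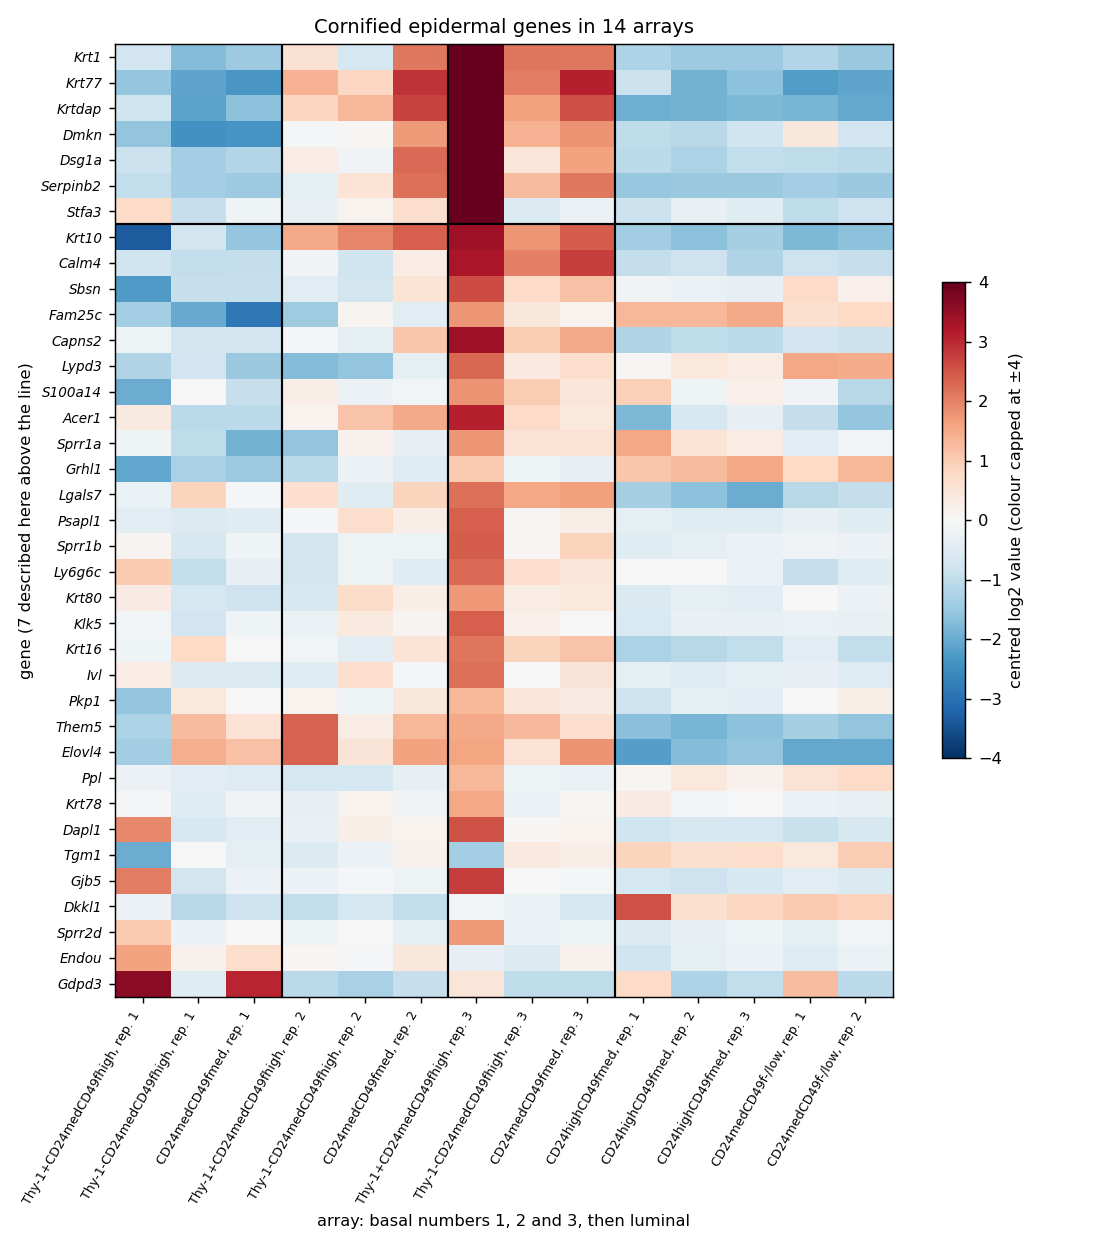
Centred log2 value (colour, capped at ±4) of the 7 genes (above the line) and of the 30 other measured cornified and suprabasal genes, ordered by their difference between numbers 3 and 1, in the 9 basal arrays grouped by replicate number and in the 5 luminal arrays. Thy-1+CD24medCD49fhigh replicate 3 is the highest array for 7 of the 7 and 23 of the 30 genes.

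Genes of the same families as Serpinb2 and Stfa3 were few in the table. Of 6 measured stefin and serpin B relatives, 3 rose in basal relative to luminal cells, namely Serpinb11 (3.75 ± 0.45, adjusted p = 1.98e-06 in limma), which lies near Serpinb2 on chromosome 1, Serpinb6b (3.17 ± 0.48, adjusted p = 2.6e-05) and Serpinb9 (0.98 ± 0.32, adjusted p = 0.0198), where 17.4% of all features rose and 27.7% fell. Cst3, the cystatin C gene, fell by 0.85 (adjusted p = 0.0322). None of the 6 passed by number in limma (2 at an unadjusted p under 0.05), and Thy-1+CD24medCD49fhigh replicate 3 was the highest array for 0 of 6.

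Basal keratinocyte genes, which epidermis and mammary basal cells share, were higher in all basal than in all luminal arrays by their array medians (-0.35 to 1.35 at number 1, -0.05 to 1.32 at number 2 and 1.38 to 1.58 at number 3, against -1.70 to -1.41 in luminal arrays). Of 15 measured, 11 rose relative to luminal cells, where 17.4% of all features did, among them Krt17 (5.48 ± 0.46), Col17a1 (4.91 ± 0.39), Krt5 (4.44 ± 0.47), Trp63 (4.08 ± 0.37) and Krt15 (3.97 ± 0.51), each with an adjusted p of 3.49e-06 or less in limma. None passed by number (3 at an unadjusted p under 0.05). Krt5 averaged 1.47 ± 1.33, 0.76 ± 1.17 and 2.53 ± 0.11 at numbers 1, 2 and 3 (SD, n = 3). The number 1 arrays lay below the other 6 for 2 of the 15 (the desmosomal genes Dsc3 and Dsp), beside 1.95% of all features. Thy-1+CD24medCD49fhigh replicate 3 was the highest of 14 arrays for 10 of the 15, Krt5 and Krt14 among them, and for 7 of 14 measured fibroblast genes, beside 6.26% of all features. Of 4 measured hair follicle genes, Fst and Lgr6 rose in basal cells (4.86 and 0.87, limma adjusted p = 2.08e-08 and 0.0449), Krt79 and Krt6a did not pass, and none passed by number in limma (1 at an unadjusted p under 0.05).

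Markers of other cell types also moved with the number, in either direction. Of 16 measured endothelial genes, 6 passed the F-test of limma, where 0.459% of all features did (Tek, Emcn, Cd93, Pecam1, Cdh5 and Esam, adjusted p = 0.00439 to 0.0426), and each had its highest mean at number 1 and its lowest at number 3. Tek, an angiopoietin receptor gene, was 4.45, 1.27 and -0.82 in Thy-1+CD24medCD49fhigh, 1.69, -1.13 and -1.78 in Thy-1-CD24medCD49fhigh and 3.05, 2.28 and -1.60 in CD24medCD49fmed replicates 1, 2 and 3. Array medians of the 16 endothelial genes were 0.29 to 2.78 at number 1, -0.61 to 0.83 at number 2 and -0.78 to -0.09 at number 3, against -1.02 to -0.72 in luminal arrays. The adipocyte genes Fabp4 and Cd36, 2 of 4 measured, passed too (adjusted p = 0.0286 each), in the same direction as the endothelial genes. Array medians of the 16 luminal genes ran the way of the 7 genes, with -1.78 to -1.32 at number 1, -1.47 to -0.85 at number 2 and -0.66 to -0.12 at number 3, against 1.43 to 2.10 in luminal arrays, and 1 of the 16, Krt19, passed (limma adjusted p = 0.0286). Whether the cells behind these markers have a part in the numbers' difference in epidermal genes was not tested, and in bulk RNA fewer cells of a type cannot be told from less RNA per cell. Of the 29 features past the threshold outside the 7 genes, 10 had their lowest mean at number 1 and 18 their highest. All these calls were lost without Thy-1+CD24medCD49fhigh replicate 1 or 3 and after median centring.

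**Figure D4:**
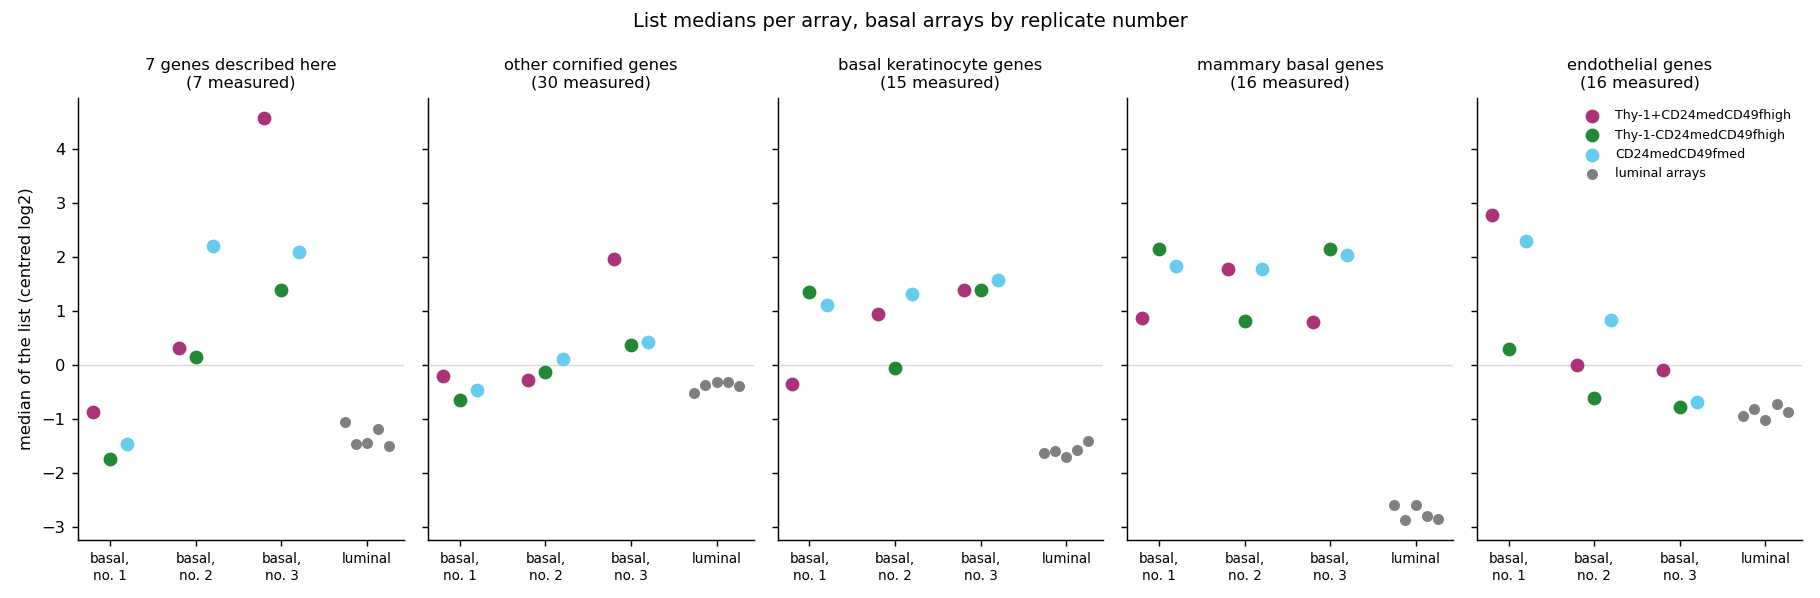
Median centred log2 value of each list in each array (vertical axis), with the basal arrays by replicate number and coloured by population and the luminal arrays in grey. The 7 genes run from -1.74 to -0.86 at number 1 and 1.39 to 4.57 at number 3, the endothelial genes from 0.29 to 2.78 and -0.78 to -0.09.

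In the basal arrays the 7 genes other than Stfa3 followed each other closely. Pearson's r over the 9 basal arrays was 0.92 to 0.99 for the 15 pairs without Stfa3 (median 0.96), highest for the neighbours Krtdap and Dmkn, and 0.90 to 0.99 without Thy-1+CD24medCD49fhigh replicate 3. Stfa3 correlated with the others at 0.54 to 0.77, and at 0.13 to 0.31 without that array. In the 5 luminal arrays the 15 pairs ran from -0.67 to 0.92. These values describe arrays that share numbers, populations and scaling.

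Of 6037 other named genes, those most like the mean profile of the 7 over the 9 basal arrays were Dsc3 (r = 0.98, and 0.96 without Thy-1+CD24medCD49fhigh replicate 3), the desmosomal cadherin desmocollin 3, Capns2 (0.97 and 0.93), a small calpain subunit gene, Fgfbp1 (0.96 and 0.91), which encodes a carrier of fibroblast growth factors, Gltp (0.96 and 0.91), a glycolipid transfer protein gene, and Gm94 (0.96 and 0.93). Bbox1, Cldn1, Dhx32, Anxa8 and Pkib followed at 0.93 to 0.96. Cldn1 encodes a claudin of the epidermal tight junction. Unlike Krt1, it lay below all luminal arrays (0.22 to 1.99) in every basal array except Thy-1+CD24medCD49fhigh replicate 3 (1.63). In the number 1 basal arrays Cldn1 was -1.80 to -0.62. Bbox1 likewise lay below its lowest luminal array (0.2) in every basal array except Thy-1+CD24medCD49fhigh replicate 3 (2.37). Dhx32 lay below its lowest luminal array (0.8) in all 9 basal arrays, of which the highest was 0.38. Dsc3 was -0.16, 0.69 and 3.07 in Thy-1+CD24medCD49fhigh, -0.13, 0.55 and 0.78 in Thy-1-CD24medCD49fhigh and -0.41, 1.32 and 1.58 in CD24medCD49fmed replicates 1, 2 and 3, against -1.62 to -1.33 in luminal arrays. Its number 1 arrays, though the lowest basal ones, lay above every luminal array. The most opposite genes were Hsph1 (-0.92), a heat shock protein gene, Nnt (-0.91), Blcap (-0.90), Ppp1r2 (-0.88) and Mark1 (-0.86). Stfa3 had a set of its own, led by Ppp2r2c (0.99, and 0.94 without Thy-1+CD24medCD49fhigh replicate 3), Fgf7 (0.98 and 0.83) and Ifnab (0.97 and 0.75). The 5 genes most like each of Krt77, Krtdap, Dmkn, Dsg1a and Serpinb2 were mostly from among the 6 genes without Stfa3 and Dsc3. For Krt1 they were Dmkn, Capns2, Cldn1, Dsg1a and Anxa8.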

How the data were processed

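Sorted mammary populations were measured on 14 Affymetrix Mouse Genome arrays. The authors deposited log2 values that, by the study's methods, were made by RMA in MIDAS, filtered in Cluster 3.0 for signal and a 4-fold difference, and mean-centred per probe set. GCRMA is named as well in the submitters' notes, and no version of either is stated. The table held 9645 probe sets. Those with 1 symbol (8499) were averaged to 6044 genes, and the 199 with several symbols and 947 with none stayed single rows, giving 7190 features. Depth has no meaning here. The number of arrays limits precision, and absolute levels were not used.

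Groups and replicate numbers came from the titles, and 1 title reading "3v" was taken as 3. Populations were compared with limma 3.58.1 in R 4.3.3 (two-sided, Benjamini-Hochberg, adjusted p under 0.05) on the arrays compared, and numbers by a moderated F-test on 9 basal arrays with population as a term. The fit was tested on simulated data with known differences. Genes were named by rule: the 7 genes, up to 10 called genes each way per list (up to 5 by size where none was), neighbours in the table, and the genes most and least like the 7. The members and lists were chosen with earlier results of these data known. Number pairing was checked by correlating deviations from group means at equal numbers: r was 0.386 to 0.391 between Thy-1+CD24medCD49fhigh and CD24medCD49fmed arrays, 0.328 to 0.558 between Thy-1-CD24medCD49fhigh and CD24medCD49fmed arrays, and -0.16 to 0.245 between Thy-1+CD24medCD49fhigh and Thy-1-CD24medCD49fhigh arrays. Unlike numbers were not set beside these, and the labels name no pairs, so pairing by number is not settled. Promoter windows and neighbours came from RefSeq (GRCm38.p6). Tables were made in Python 3.11.15 with pandas 2.3.3. Alternatives were all 14 arrays in 1 fit, the number as a block (for numbers, no population term), single probe sets, centring arrays on their median, quantile normalization, an absolute difference of 1 or more and leaving out each array.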

Additional observations from a re-analysis of the deposited data

How the results depend on the processing

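The median difference of the 7 genes moved by less than the spread between arrays under all alternatives run, except the range of number means with all 14 arrays in the fit (2.97, against 4.26). Leaving out each array gave medians of 1.60 to 2.52 for basal minus luminal, -0.24 to 2.64 for Thy-1+CD24medCD49fhigh minus Thy-1-CD24medCD49fhigh, -1.19 to 1.71 for Thy-1+CD24medCD49fhigh minus CD24medCD49fmed, -2.21 to -0.06 for Thy-1-CD24medCD49fhigh minus CD24medCD49fmed and 3.57 to 5.01 for the range of number means. With each array centred on its median, or after quantile normalization, both chosen after seeing the data, the number 1 arrays lay below the other basal arrays for 4 of the 7 genes, not for Krt1, Serpinb2 and Stfa3, and Thy-1+CD24medCD49fhigh replicate 3 was highest for 7 and 6. The first count was 6 without each basal array.

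By replicate number 33 features passed, against 21 with all 14 arrays in the fit, 0 after median centring, 15 after quantile normalization, 5 with no population term, and 0 to 80 without 1 array (0 without Thy-1+CD24medCD49fhigh replicate 1 or 3, 18 and 20 without CD24medCD49fmed replicates 1 and 3, 52 without its replicate 2, 66 without Thy-1+CD24medCD49fhigh replicate 2, 68 and 80 without Thy-1-CD24medCD49fhigh replicates 1 and 3). Other cornified genes called numbered 2, against 1 with all 14 arrays, 0 after median centring and 0 to 7 without 1 array. Between basal and luminal arrays 1253 features rose and 1989 fell, against 1560 and 1436 after median centring, and 2124 to 4270 passed without 1 array (lowest without CD24medCD49f-/low replicate 2), with 7 to 16 cornified genes (13 with all arrays, 8 and 7 without CD24medCD49f-/low replicates 1 and 2). Thy-1+CD24medCD49fhigh minus Thy-1-CD24medCD49fhigh called 3 features, 5 with the replicate block, 0 with all 14 arrays in 1 fit, after either scaling and on single probe sets, and 0 to 10 without 1 array (10 without Thy-1+CD24medCD49fhigh replicate 2, 0 without each other). At equal numbers the deviations of these 2 sets correlated at -0.16 to 0.245, and the block moved no call of the cornified list. Thy-1+CD24medCD49fhigh minus CD24medCD49fmed called 0 features, 55 with the replicate block and 0 to 856 without 1 array (856 without Thy-1+CD24medCD49fhigh replicate 2), with 0 to 3 cornified genes. Thy-1-CD24medCD49fhigh minus CD24medCD49fmed called 0, and 0 to 1 without 1 array (1 without CD24medCD49fmed replicate 3). In both block fits with Thy-1+CD24medCD49fhigh arrays against 1 other population, all of the 7 genes had the same SE. It was 0.73 against Thy-1-CD24medCD49fhigh and 0.55 against CD24medCD49fmed cells. There limma had drawn the genes' variances to a common value, so these SEs hold no spread of the single genes. What caused the changes in calls between settings was not tested.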

Other observations

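Gdpd3, a gene of the cornified list that encodes a phosphodiesterase, had a pattern of its own by replicate number. It was chosen after its values were seen. It was 3.60, -1.09 and 0.49 in Thy-1+CD24medCD49fhigh, -0.50, -1.29 and -1.02 in Thy-1-CD24medCD49fhigh and 3.05, -0.92 and -1.01 in CD24medCD49fmed replicates 1, 2 and 3, against 0.75, -1.25 and -0.99 in CD24highCD49fmed and 1.22 and -1.05 in CD24medCD49f-/low arrays. The arrays numbered 1 were the highest of their population in all 5 populations, by 0.52 to 3.97 on the log2 scale, whereas Krt1, Krt77, Krtdap, Dmkn, Dsg1a and Serpinb2 had their lowest basal arrays at number 1. It did not pass the F-test over basal arrays (limma adjusted p = 0.0728).

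Krt19, a luminal keratin gene, was 1 of 16 measured luminal genes past the F-test by number in basal arrays (limma adjusted p = 0.0286). It averaged -1.91 ± 0.82, -1.64 ± 0.16 and 0.76 ± 0.34 at numbers 1, 2 and 3 (SD, n = 3 populations).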
